A study of Mus musculus with 2 samples.

Results

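Tubulin isotypes are the separate gene products that build microtubules, and 10 of them were followed by gene symbol through single cells of the mouse eye, 10 of the 32285 genes in the files. They are 6 beta-tubulin genes (Tubb5, Tubb3, Tubb2a, Tubb2b, Tubb4a and Tubb6) and 4 alpha-tubulin genes (Tuba1a, Tuba1b, Tuba1c and Tuba4a), listed by name and not by any measured value. The cells came from E17.5 optic cups in 2 libraries. One came from embryos homozygous for the humWT allele of Myrf (humWT/humWT), the other from embryos homozygous for the humdG allele (humdG/humdG). In both genotypes the last coding exon of mouse Myrf is replaced by the human exon, on a C57BL/6J background, and the humdG allele also carries a C-terminal frameshift found in families with nanophthalmos. Myrf is a transcription factor of the retinal pigment epithelium (RPE), and the study asked how the frameshift allele changes the developing eye. The labels describe 3 pooled eye cups per library without cornea, lens and optic nerve, while the study's methods describe the eyes of 3 mice with the cornea left in place, and the protocol in the labels speaks of Rx>cre Myrf fl/fl mice, so the dissection of these libraries is uncertain. With 1 library a genotype, replicate error is unknown and genotypes are not tested against each other. Intervals are exact 95% intervals of counting error only.

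Microtubules are hollow polymers of alpha- and beta-tubulin heterodimers. Vertebrates carry several genes for each subunit, whose proteins are alike through the folded core and differ mostly in a short acidic tail at the carboxyl end, the surface on which many motors and modifying enzymes act. Tubb3 is the classical neuronal beta-tubulin, Tubb2a, Tubb2b, Tubb4a and Tuba1a are best known from brain, Tubb5, Tuba1b and Tuba1c are widely expressed, Tuba4a is known from mature brain and platelets, and Tubb6 is known from non-neural tissue.

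The ends of 7 coding sequences are shown because most of the isotypes differ there. Each line gives the last 30 coding bases before the stop codon, 5′ to 3′ on the coding strand, from GENCODE M21 on GRCm38, and capitals mark in-frame glutamate codons (GAA or GAG).
Tubb5: gatttcggaGAGGAGgcaGAAGAGGAGgcc
Tubb3: gacGAGGAAtcgGAAgcccaggggcccaag
Tubb2a: ttcGAGGAGGAGGAGggtGAAgatGAGgct
Tubb2b: ttcGAGGAGGAAGAGggcGAGgatGAGgct
Tubb4a: ttcGAAGAGGAGgctGAAGAGGAGgtggct
Tuba1c: gctGAAggagacgatGAGggtGAGGAAtat
Tuba4a: tcctatGAGgacGAGgatGAGggaGAAGAG
Tubb3, at chr8:123421650-123421679 on the plus strand, had 3 glutamate codons among its last 10, and Tuba1c, at chr15:99037977-99038006 on the plus strand, had 4. Tubb5 (chr17:35834985-35835014, minus strand) and Tuba4a (chr1:75215625-75215654, minus strand) had 5 each. The other 3 printed ends had 6 each, at chr13:34074471-34074500 for Tubb2a, chr13:34127474-34127503 for Tubb2b and chr17:57080693-57080722 for Tubb4a, all on the minus strand. The printed ends of Tubb2a and Tubb2b differ only in synonymous bases and encode the same residues. Each printed end lay within a single coding exon. Tuba1c ended in a tyrosine codon (tat), the residue that detyrosinating enzymes remove, while the Tuba4a coding sequence ended in a glutamate codon.

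Over the whole coding sequence Tuba1a and Tuba1b were identical at 98.3% of aligned bases, Tuba1b and Tuba1c at 98.4%, and Tubb2a and Tubb2b at 96.5%. The other beta pairs shared 81.1% to 86.6%. The libraries read the 3′ ends of transcripts, where the likeness matters for counting. Of the 90-base windows in the last 400 transcript bases, 36.7% of those of Tuba1a, 47.3% of Tuba1b, 53.7% of Tuba1c and 21.5% of Tubb2a occurred in another annotated gene, while no window of the other 6 genes did. How the authors' counting treated such reads is not given in the sources used here, so the split between Tuba1a, Tuba1b and Tuba1c and between Tubb2a and Tubb2b is less certain than the other values.

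RefSeq promoter entries on GRCm38.p6 (250 bases before to 50 after the start) were matched for 8 of the 10 genes, all but Tubb2b and Tubb6. The letters TATAAA, searched on both strands, occurred in 1 of the 8, Tubb2a, and in 13.6% of 32817 promoters. In Tubb2a they stood 29 bases before the start. The stretch around them, at chr13:34078020-34078049 on the minus strand, is printed with the motif in capitals.
Tubb2a promoter: gcggtccccgggTATAAAaggcggtgctgg
The letters GGGCGG occurred in 6 of the 8 against 35.6% of all promoters, and CCAAT in 4 of the 8 (Tuba1a, Tuba1c, Tubb3 and Tubb5) against 37.4%, again on both strands. These matches are descriptions of the sequence.

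After filtering, 16166 cells of the humWT/humWT library (median 3785 UMIs) and 18173 of the humdG/humdG library (median 2625 UMIs) remained, more than the study's text gives for these genotypes, and 86 cell barcodes occurred in both. A UMI is a unique molecular identifier, which lets copies of 1 captured transcript be counted once. The cells formed 25 clusters, of which 21 took 1 of 17 class names from marker genes other than tubulins, and 4 stayed unnamed, among them the largest, which held 3604 humWT/humWT and 7738 humdG/humdG cells of low depth. The tubulin family was left out of the genes used for clustering, of which it would have supplied 1, Tubb3. The amacrine and horizontal-like cluster raised 7 markers of its class, among them Ptf1a, Prox1 and Gad1, but also markers of retinal ganglion cells, so it is not shown to be free of ganglion cells. The macrophage-like cluster raised 10 markers of its class, but the neutrophil markers S100a8 and S100a9 were also among its leading genes. It is therefore not shown to be free of neutrophils. Myrf itself was at 281 CPM (265 to 297) in the RPE-like cells of humWT/humWT and 198 CPM (180 to 216) in those of humdG/humdG. The level in red blood cell-like cells, a class that is not neuronal, is given beside the results as a reference. How much of it is free RNA taken up in the droplets and how much the cells' own was not tested.

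Levels are CPM, the UMIs of a gene summed over the cells of a class, per 1000000 UMIs of all genes. Because only transcript ends are counted, a CPM is not divided by transcript length. The 10 genes together took 2381 CPM of the humWT/humWT library and 3685 CPM of the humdG/humdG library. These totals mix classes in different proportions. Retinal progenitor-like cells made up 11.0% and 16.7% of the libraries, and muscle fibre-like cells 9.84% and 2.97%. By class the sum of the 10 genes was highest in amacrine and horizontal-like cells (4968 and 7255 CPM) and lowest in red blood cell-like cells (849.9 and 1518 CPM). The heat map of tubulin levels shows the pattern gene by gene.

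**Figure D1:**
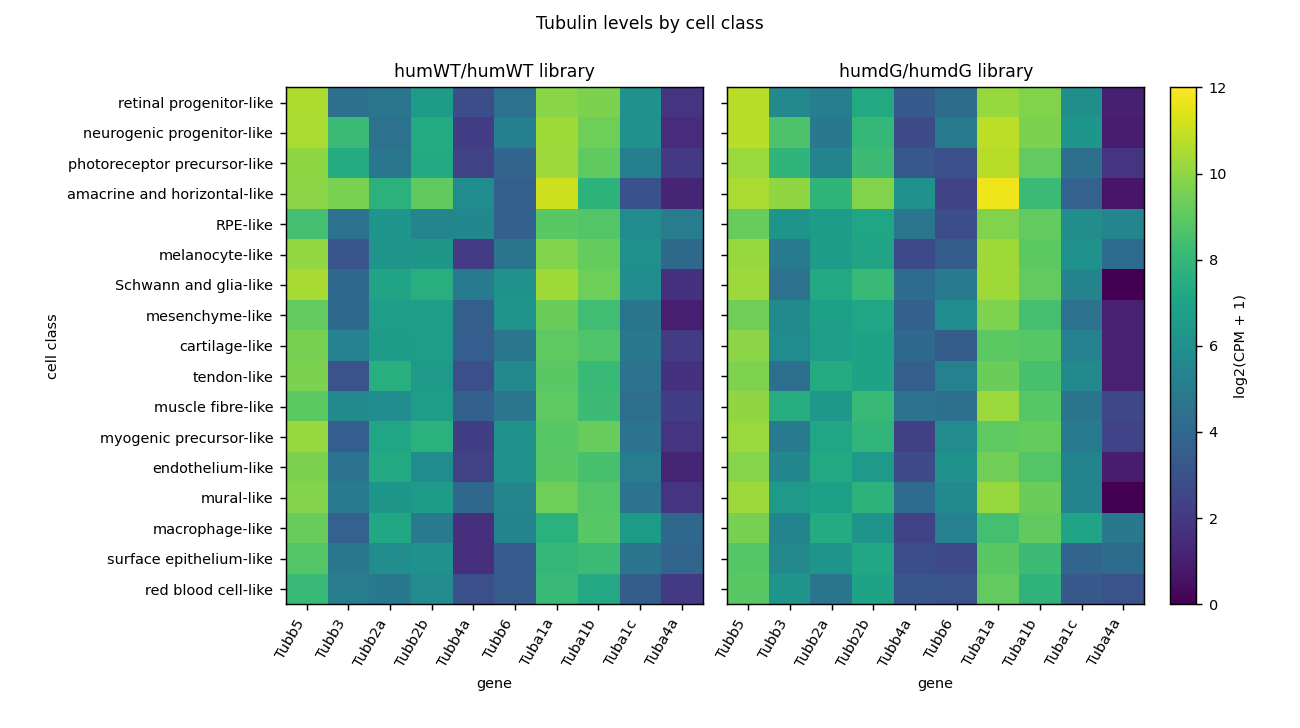
Levels of the 10 tubulin genes (columns) in 17 cell classes (rows), as log2(CPM + 1) in colour, in the humWT/humWT library (left) and the humdG/humdG library (right). Tubb5, Tuba1a and Tuba1b are bright in every class, Tubb3 is bright in the retinal neuron and neurogenic classes, and Tuba4a is brightest in RPE-like cells in both libraries.

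Tubb3 (chr8:123411424-123422015) had the widest range of the beta genes. In humWT/humWT it stood at 762 CPM (734 to 791) in amacrine and horizontal-like cells, 289 CPM (271 to 309) in neurogenic progenitor-like cells and 173 CPM (162 to 184) in photoreceptor precursor-like cells, and its lowest level was 7.28 CPM in tendon-like cells. In humdG/humdG the same 3 classes led in the same order, at 1024, 405 and 233 CPM, and no interval of these 3 overlapped the next. In humWT/humWT 59.1% of amacrine and horizontal-like cells (median 5410 UMIs) held a Tubb3 UMI, while 12.6% of red blood cell-like cells (median 4155 UMIs) did. With every cell thinned to 1000 UMIs, the shares were 29.6% and 2.25%. In humdG/humdG the unthinned shares were 78.5% (median 5251 UMIs) and 29.3% (median 4247 UMIs). The red blood cell-like level of Tubb3 itself was 31.6 CPM in humWT/humWT and 75.9 CPM in humdG/humdG, while the classes outside the first 3 ran from 7.28 to 50.7 CPM in humWT/humWT.

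Tubb2b (chr13:34126748-34130466), a beta-tubulin of developing neurons, was also highest in amacrine and horizontal-like cells, at 532 CPM (508 to 556) and 851 CPM (829 to 874). Next in humWT/humWT came myogenic precursor-like cells at 202 CPM, Schwann and glia-like cells at 183 CPM, neurogenic progenitor-like cells at 164 CPM and photoreceptor precursor-like cells at 162 CPM, each overlapping its neighbour. Its close relative Tubb2a (chr13:34074274-34078007) was spread differently. Amacrine and horizontal-like cells again led with 209 CPM (195 to 225) in humWT/humWT, but tendon-like cells followed at 183 CPM (170 to 197), overlapping them, then endothelium-like cells at 159 CPM and macrophage-like cells at 144 CPM. Tubb2a was at its lowest, 21.7 and 25.3 CPM in humWT/humWT, in neurogenic progenitor-like and photoreceptor precursor-like cells, where Tubb2b stood at 164 and 162 CPM.

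Tubb5 (chr17:35833921-35838306), the general beta-tubulin, was the most even of the beta genes, with a 5.11-fold range over the classes of humWT/humWT and a 3.82-fold range in humdG/humdG. Retinal progenitor-like cells (1449.7 CPM), neurogenic progenitor-like cells (1405 CPM) and Schwann and glia-like cells (1394 CPM) of humWT/humWT overlapped each other at the top. In humdG/humdG neurogenic progenitor-like cells (1753 CPM) stood above retinal progenitor-like cells (1703 CPM) without overlap. RPE-like cells, at 345 CPM (328 to 363), were the lowest class of humWT/humWT but for red blood cell-like cells.

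Tubb6, on chromosome 18, was highest in mesenchyme-like cells of humWT/humWT and in endothelium-like cells of humdG/humdG, overlapping the next class in both libraries. In humWT/humWT it reached 73.4 CPM (69.7 to 77.2) in mesenchyme-like cells, 69.7 CPM in myogenic precursor-like cells, 68.8 CPM in endothelium-like cells and 67.7 CPM in Schwann and glia-like cells, which overlapped in turn. In amacrine and horizontal-like and in photoreceptor precursor-like cells it stood at 11.8 and 13.9 CPM, close to the 9.79 CPM of red blood cell-like cells.

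Tubb4a (chr17:57080066-57087782), known for its high level in myelinating glia and neurons, had an order of classes of its own. In humWT/humWT it stood at 56.6 CPM (49.1 to 64.8) in amacrine and horizontal-like cells and at 48.1 CPM (41.8 to 55.1) in RPE-like cells, which overlapped, and at 29.3 CPM (19.2 to 43.0) in Schwann and glia-like cells. In humdG/humdG amacrine and horizontal-like cells were at 69.8 CPM (63.6 to 76.6) and RPE-like cells at 25.6 CPM (19.6 to 32.7), without overlap. The other retinal classes were low, with 3.52 to 6.30 CPM in humWT/humWT.

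Among the alpha genes, Tuba1a (chr15:98949837-98953703), the main alpha-tubulin of young neurons, was highest in amacrine and horizontal-like cells, at 2206 CPM (2158 to 2255) and 3346.5 CPM (3302 to 3391). Neurogenic progenitor-like, photoreceptor precursor-like and Schwann and glia-like cells of humWT/humWT followed between 1229 and 1244 CPM and overlapped. Tuba1b (chr15:98931425-98934565) had nearly the opposite ends: it was highest in retinal progenitor-like cells (798 and 840.2 CPM), and amacrine and horizontal-like cells, at 215 and 292 CPM, were its lowest class but for red blood cell-like cells. Tuba1c (chr15:99029891-99038110) was highest in macrophage-like cells, at 90.8 CPM (80.1 to 103) and 127 CPM (111 to 145), and at 7.14 and 12.5 CPM in amacrine and horizontal-like cells.

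Tuba4a (chr1:75214228-75219865) was the rarest of the 10, with 483 UMIs in all kept cells of humWT/humWT and 342 in those of humdG/humdG, and these were unevenly placed. RPE-like cells were its highest class in both libraries, at 31.8 CPM (26.8 to 37.6) from 139 UMIs and 43.0 CPM (35.2 to 52.0) from 106 UMIs. In humWT/humWT melanocyte-like (16.99 CPM), macrophage-like (15.1 CPM) and surface epithelium-like (14.0 CPM) cells came next and overlapped, and every remaining class was at 3.67 CPM or lower. In humdG/humdG no Tuba4a UMI was found in Schwann and glia-like or mural-like cells, where the exact upper limits were 5.75 and 10.7 CPM. In that library the interval of RPE-like cells just overlapped that of macrophage-like cells (27.5 CPM, 20.4 to 36.4). Both RPE-like values were above those of red blood cell-like cells, 10.2-fold (4.83 to 25.9) in humWT/humWT and 5.88-fold (2.88 to 14.0) in humdG/humdG. Tuba4a UMIs occurred in 15.7% of RPE-like cells of humWT/humWT and 17.9% of those of humdG/humdG, at medians of 3837 and 2599 UMIs. The red blood cell-like shares were 1.42% and 2.51%, at medians of 4155 and 4247 UMIs, and after thinning to 1000 UMIs the RPE-like shares were 3.00% and 2.54% and the red blood cell-like shares 0.41% and 0.43%.

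**Figure D2:**
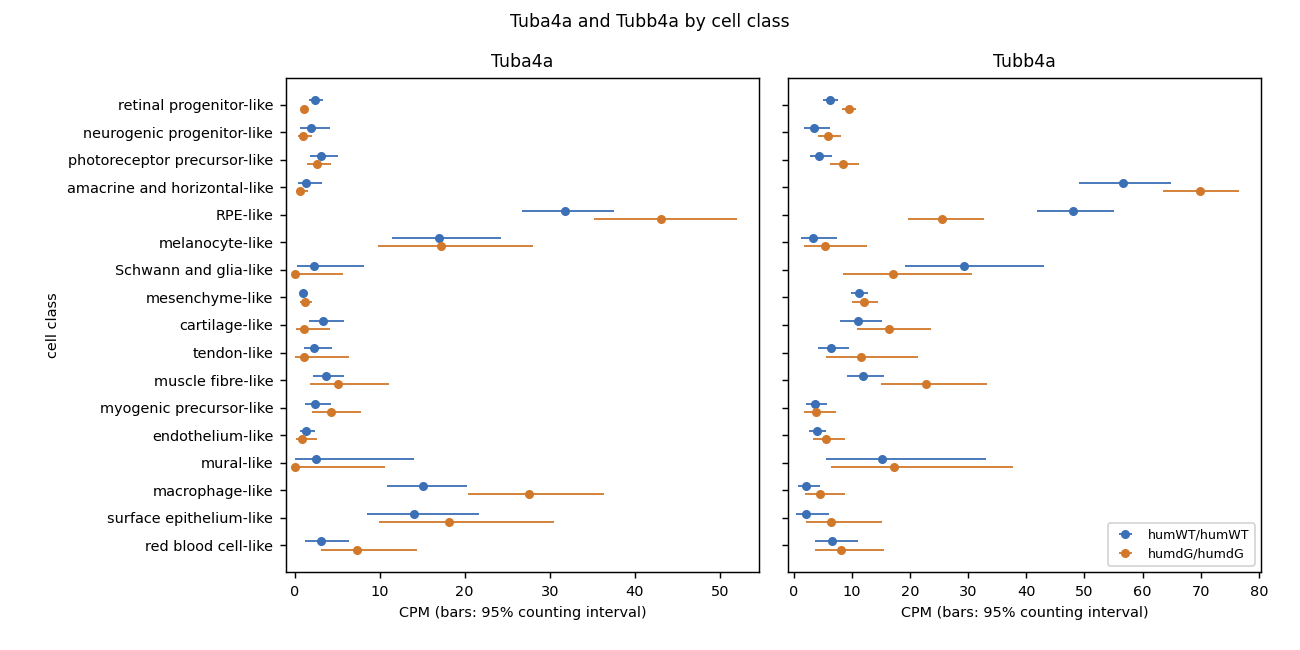
CPM of Tuba4a (left) and Tubb4a (right) in 17 cell classes, with humWT/humWT in blue and humdG/humdG in orange, and bars giving the exact 95% counting interval. Tuba4a is highest in RPE-like cells of both libraries (31.8 and 43.0 CPM), and Tubb4a in RPE-like cells is at 48.1 CPM in humWT/humWT and 25.6 CPM in humdG/humdG.

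The share of each isotype within its family does not depend on the other genes of a class. Tubb5 supplied most beta-tubulin UMIs in every class but one, up to 89.6% (89.2 to 89.9) in retinal progenitor-like cells of humWT/humWT. In amacrine and horizontal-like cells it supplied 38.1%, with Tubb3 at 30.03% and Tubb2b at 21.0%, and in humdG/humdG these shares were 39.4%, 28.4% and 23.6%. Tuba1a made up 90.8% (90.2 to 91.4) and 91.7% (91.3 to 92.0) of the alpha UMIs there, the most of any class. Macrophage-like cells were the reverse, with 26.2% and 33.3% from Tuba1a, 60.2% and 51.6% from Tuba1b and 11.7% and 12.4% from Tuba1c. In RPE-like cells of humWT/humWT Tubb4a supplied 8.82% (7.71 to 10.0) of beta UMIs and Tuba4a 3.15% (2.66 to 3.71) of alpha UMIs, the highest share of any class for both, though for Tuba4a the interval overlapped that of surface epithelium-like cells (1.49 to 3.72). Tubb4b, a beta-tubulin of cilia and dividing cells that is not among the 10, is left out, and the beta shares would be smaller with it counted. In retinal progenitor-like cells it stood at 589 and 653 CPM, where Tubb5 was at 1449.7 and 1703 CPM.

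**Figure D3:**
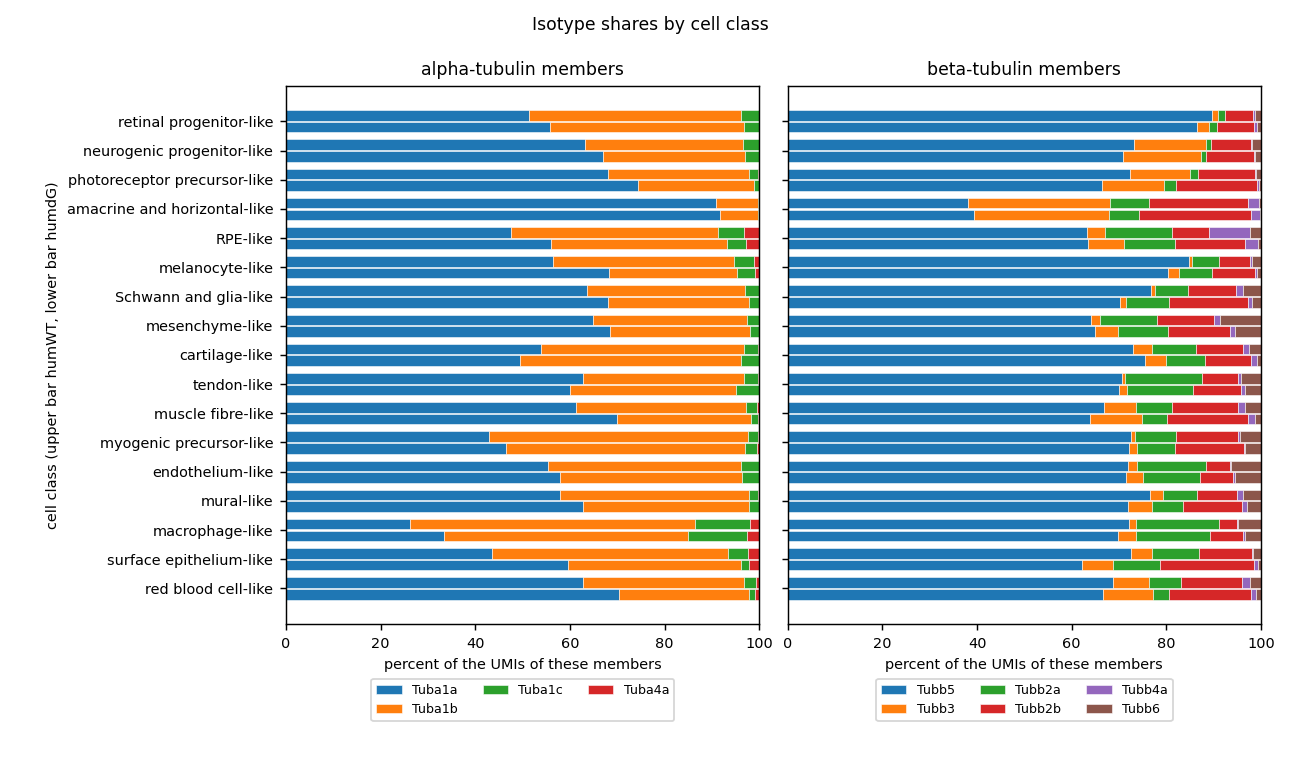
Share of each gene among the UMIs of the 4 alpha genes (left) and the 6 beta genes (right), in percent, for 17 cell classes, the upper bar of each pair for humWT/humWT and the lower for humdG/humdG. Tuba1a fills 90.8% and 91.7% of the alpha bar in amacrine and horizontal-like cells, and Tubb3 and Tubb2b take large parts of the beta bar there.

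Retinal progenitor-like cells divide, and the members differed within that class. Cells were thinned to 1000 UMIs and set apart by the UMIs of 10 G2/M genes, giving 598 humWT/humWT cells with none, 363 with 1 and 817 with 2 or more, and 964, 613 and 1442 humdG/humdG cells. Tuba1c stood at 11.9 CPM (8.88 to 15.7) in humWT/humWT cells with none and at 109 CPM (102 to 116) in those with 2 or more, a 9.14-fold ratio (6.89 to 12.4), and the ratio in humdG/humdG was 9.88-fold (7.88 to 12.6). Tubb6 was 3.18-fold (2.26 to 4.58) and 2.19-fold (1.71 to 2.85) higher with 2 or more, Tuba1b 1.86-fold and 1.61-fold, and Tubb5 1.49-fold and 1.33-fold. Tubb4a was lower, with ratios of 0.52 (0.32 to 0.84) and 0.55 (0.41 to 0.73), and Tubb2b at 0.86 and 0.88. Tubb3 was also lower, with ratios of 0.60 (0.47 to 0.77) and 0.75 (0.66 to 0.85), and Tuba1a slightly higher, at 1.23 and 1.10. Both libraries gave the same direction for each of these genes, while the intervals of Tubb2a and Tuba4a held 1 in both. Cells with 2 or more G2/M UMIs also had more UMIs in all, with medians of 10534 against 7218 in humWT/humWT and 9991 against 7984 in humdG/humdG, and the part of depth in these ratios was not tested.

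**Figure D4:**
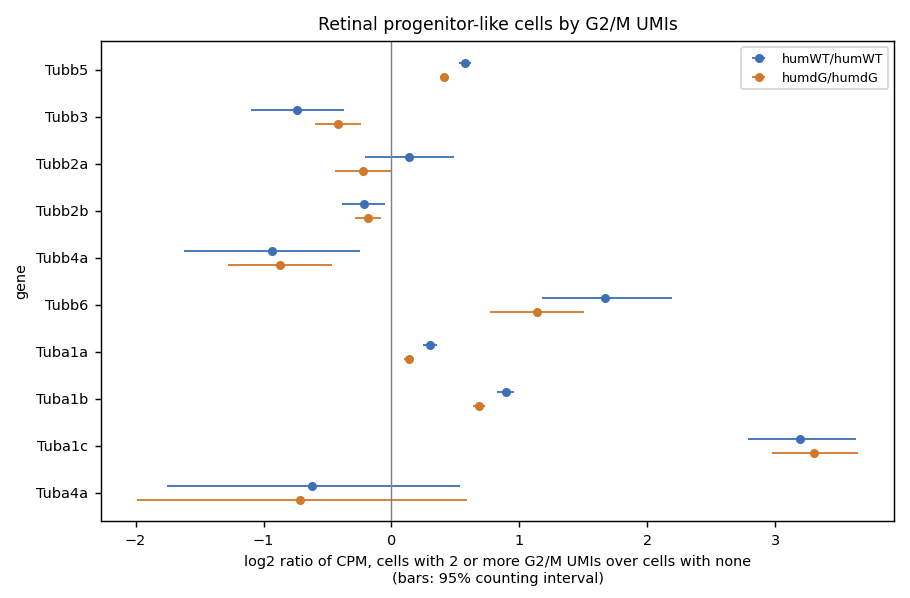
Log2 ratio of CPM between retinal progenitor-like cells with 2 or more G2/M UMIs and those with none, for the 10 genes, with humWT/humWT in blue, humdG/humdG in orange and bars giving the exact 95% counting interval. Tuba1c lies far to the right in both libraries (9.14-fold and 9.88-fold), and Tubb4a lies left of 0 in both.

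Between genotypes, the RPE-like cells come first, as the cells that use Myrf. Together the 10 genes were at 1555 CPM in 566 humWT/humWT cells and at 2430.0 CPM in 396 humdG/humdG cells, a log2 ratio of 0.64 (0.59 to 0.69). Of the 10, 4 were at least 1.5 times higher in humdG/humdG with an interval above 1 and 2 were as much lower, while over all 12638 genes with at least 20 UMIs in these cells 4.54% were called higher and 10.8% lower. The 4 higher genes were Tubb3 (21.1 and 72.6 CPM, log2 ratio 1.79, 1.41 to 2.16), Tubb2b (42.6 and 138 CPM, 1.70, 1.43 to 1.96), Tuba1a (480.1 and 840.4 CPM, 0.81, 0.72 to 0.90) and Tubb5 (345 and 590.0 CPM, 0.78, 0.67 to 0.88). In cells with at least 10000 UMIs the log2 ratios of Tubb5 and Tuba1a were 0.52 and 0.49, under the 1.5-fold mark. That left 2 members called higher, Tubb3 and Tubb2b. With the red blood cell-like level subtracted the log2 ratio of Tuba1a was 0.45, and Tubb3 and Tubb2b gave no value. The 2 members called higher after subtraction were Tubb5 and Tubb2a, the latter at 0.61 and not called without subtraction. Tubb5, Tubb3, Tubb2b and Tuba1a were also higher in red blood cell-like cells, where the share of all genes called higher was 6.40%. The 10 genes together were at 849.9 and 1518 CPM there, a log2 ratio of 0.84 (0.74 to 0.93). Over all kept cells, a mix of classes, their sum was 2381 and 3685 CPM. The higher sum in humdG/humdG was therefore not particular to RPE-like cells.

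Red blood cell-like cells had log2 ratios of 1.26 (0.79 to 1.74) for Tubb3, 1.23 (0.87 to 1.60) for Tubb2b, 1.03 (0.86 to 1.19) for Tuba1a and 0.77 (0.60 to 0.93) for Tubb5. In humdG/humdG the RPE-like level was 0.96 times the red blood cell-like level for Tubb3 (0.73 to 1.26) and 1.10 times for Tubb2b (0.90 to 1.35), and in humWT/humWT it was 0.67 times (0.48 to 0.92) and 0.80 times (0.63 to 1.01). The RPE-like values of Tubb3 and Tubb2b therefore did not stand above the red blood cell-like level in either library, and whether they are expression of the RPE-like cells was not tested. Tubb5 stood 1.22-fold above the red blood cell-like level in both libraries, and Tuba1a 1.75-fold and 1.503-fold. The summed marker lists of retinal cells were all higher in humdG/humdG too, in RPE-like and in red blood cell-like cells. The summed level of 10 neurogenic progenitor markers in RPE-like cells was 181 CPM in humWT/humWT and 356 CPM in humdG/humdG, with all 10 detected in both. In red blood cell-like cells it was 139 and 273 CPM, with 10 and 9 detected. The 11 retinal ganglion cell markers were at 143 and 200.1 CPM in RPE-like cells and at 110.4 and 187 CPM in red blood cell-like cells. In RPE-like cells the summed amacrine and horizontal cell markers were 1.52-fold higher in humdG/humdG (1.27 to 1.81), the retinal progenitor markers 1.53-fold (1.46 to 1.60) and the photoreceptor precursor markers 1.10-fold (1.03 to 1.17). In red blood cell-like cells these 3 ratios were 1.34, 1.86 and 2.001. The photoreceptor precursor markers stood at 536 and 588 CPM in RPE-like cells, well above their 118 and 237 CPM in red blood cell-like cells. The part of these marker lists in the tubulin ratios was not tested.

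Tubb4a was lower in RPE-like cells of humdG/humdG. It had 210 UMIs (48.1 CPM) in humWT/humWT and 63 UMIs (25.6 CPM) in humdG/humdG, a log2 ratio of -0.91 (-1.34 to -0.50). As a mean of per-cell CPM the log2 ratio was -0.51, under the 1.5-fold mark. Red blood cell-like cells had 15 and 9 UMIs (6.68 and 8.23 CPM), a log2 ratio of 0.30 (-1.07 to 1.59), and the RPE-like level stood 7.20-fold (4.27 to 13.1) and 3.10-fold (1.54 to 7.102) above them. In the larger RPE-like cluster Tubb4a was at 52.3 CPM in humWT/humWT and 26.5 CPM in humdG/humdG, and in the smaller, of 74 and 16 cells, it had 8 and 0 UMIs. Tubb4a UMIs occurred in 21.4% and 12.4% of RPE-like cells. After thinning to 1000 UMIs the RPE-like shares were 3.18% and 3.30%, so the lower humdG/humdG value was not seen there. The red blood cell-like shares before thinning were 2.83% and 3.77%, at medians of 4155 and 4247 UMIs. Tubb6 had 53 and 16 UMIs in RPE-like cells, a log2 ratio of -0.90 (-1.81 to -0.07), at levels close to those of red blood cell-like cells (12.1 and 6.49 CPM against 9.79 and 7.32 CPM), and at clustering resolution 1.0 the log2 ratio was -0.57, under the mark. The remaining 4 genes were not called: Tuba4a had a log2 ratio of 0.43 (0.06 to 0.81), Tubb2a 0.36 (0.12 to 0.60), Tuba1b 0.33 (0.23 to 0.43) and Tuba1c 0.11 (-0.19 to 0.41).

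**Figure D5:**
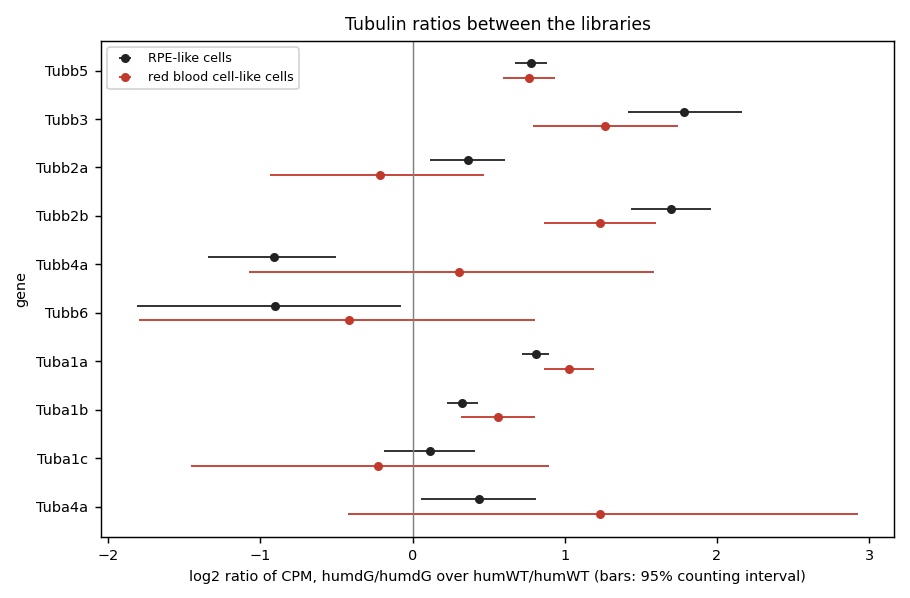
Log2 ratio of CPM in humdG/humdG over humWT/humWT for the 10 genes in RPE-like cells (black) and red blood cell-like cells (red), with bars giving the exact 95% counting interval. Tubb5, Tubb3, Tubb2b and Tuba1a lie right of 0 in both classes, while Tubb4a in RPE-like cells lies left of 0 at -0.91.

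Over the 16 classes compared, 41 of the 160 ratios were called higher in humdG/humdG and 8 lower, with 121 above 1. Melanocyte-like cells were left out because pigment genes of the RPE list led that cluster. Over all genes with at least 20 UMIs, the share called higher ran from 2.47% in neurogenic progenitor-like to 40.8% in cartilage-like cells. The share called lower ran from 3.31% in mural-like to 13.1% in red blood cell-like cells. Tubb2b was called higher in 12 classes and Tubb3 in 11, and both had ratios above 1 in all 16. Tuba1a was called higher in 7 and Tubb5 in 3, while Tubb6 was called lower in 5 and higher in none. The median log2 ratio of all genes was 0.54 in cartilage-like cells, 0.30 in muscle fibre-like, 0.16 in mural-like, -0.13 in red blood cell-like and -0.15 in tendon-like cells, and within 0.10 of 0 in the other classes.

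In amacrine and horizontal-like cells 3 members were called higher and 1 lower, against 4.07% and 11.5% of all genes. The higher ones were Tubb2b with a log2 ratio of 0.68 (0.60 to 0.75), Tuba1a with 0.60 (0.56 to 0.64) and Tuba1c with 0.80 (0.15 to 1.5002), the last at 7.14 and 12.5 CPM, close to the 10.7 and 9.15 CPM of red blood cell-like cells. The member called lower was Tubb6 (11.8 and 4.46 CPM). Tubb5, with 0.56 (0.50 to 0.61), and Tubb3, with 0.43 (0.36 to 0.49), were not called. In cells with at least 10000 UMIs Tubb2b and Tuba1a were at 0.35 and 0.32, and at resolution 1.0 Tuba1c was at 0.08, all under the 1.5-fold mark. That class held 521 and 903 cells, and whether it has the same mix of neurons in both libraries was not tested. In retinal progenitor-like cells 3 were higher and 1 lower, against 3.21% and 8.43% of all genes. The lower one was Tuba4a, at 2.44 and 1.06 CPM, with red blood cell-like cells at 3.12 and 7.32 CPM. Of the higher ones Tubb3 was at 20.9 and 48.5 CPM, below the 31.6 and 75.9 CPM of red blood cell-like cells, and Tubb4a at 6.30 and 9.56 CPM, close to their 6.68 and 8.23 CPM. Tubb2b was at 95.5 and 156 CPM in them (log2 ratio 0.71, 0.63 to 0.80), with red blood cell-like cells at 53.4 and 125 CPM, and with that level subtracted the log2 ratio turned to -0.44. In neurogenic progenitor-like cells 1 member was higher, Tubb2b (164 and 250.3 CPM), and none lower, against 2.47% and 6.81%. In photoreceptor precursor-like cells 3 were higher and 2 lower, against 3.95% and 7.74%, with Tubb2b at 162 and 301 CPM and Tuba1c at 34.9 and 20.4 CPM. The Tubb2b values of neurogenic progenitor-like and photoreceptor precursor-like cells also stand beside 53.4 and 125 CPM in red blood cell-like cells. The part of that level in these Tubb2b ratios was not tested.

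Outside the retina the calls were mostly of Tubb3 and Tubb2b. In humdG/humdG several of these lay below the red blood cell-like level of 75.9 CPM for Tubb3 and 125 CPM for Tubb2b. Tubb3 stood at 50.1 CPM in mesenchyme-like, 46.4 CPM in endothelium-like, 41.6 CPM in macrophage-like, 28.5 CPM in myogenic precursor-like and 19.7 CPM in tendon-like cells, and Tubb2b at 72.4 CPM in macrophage-like and 89.8 CPM in endothelium-like cells. Macrophage-like cells had 4 members higher and none lower (6.65% and 6.63% of all genes), among them Tuba4a at 15.1 and 27.5 CPM. Muscle fibre-like cells had 6 higher and none lower (20.6% and 4.54%), among them Tubb5 at 500.1 and 1020 CPM, in a class where the median of all genes was shifted the same way. Red blood cell-like cells had 4 higher and none lower (6.40% and 13.1%). Mural-like cells had 3 higher and none lower (7.44% and 3.31%), and surface epithelium-like cells also 3 and none (2.88% and 6.17%). Endothelium-like cells had 2 higher and none lower (3.73% and 6.49%), as did tendon-like cells (2.48% and 8.03%). Mesenchyme-like cells (3.86% and 4.97%) and myogenic precursor-like cells (3.78% and 3.66%) had 1 higher and none lower, in both cases Tubb3. Schwann and glia-like cells had 1 higher and 1 lower (3.45% and 6.21%), Tubb2b at 183 and 283 CPM and Tubb6 at 67.7 and 31.2 CPM. Cartilage-like cells had none higher and 1 lower (40.8% and 3.41%), Tubb6 at 26.2 and 10.5 CPM. That class was uneven, with 1184 humWT/humWT and 141 humdG/humdG cells. They held 3585923 and 1713925 UMIs in all, at medians of 2744 and 2582 per cell. The part of this imbalance in the cartilage-like ratios was not tested.

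Genes that act on tubulin were counted in RPE-like cells by list, where 4.54% of all genes were called higher and 10.8% lower. Of 4 stathmins, which bind and sequester tubulin dimers, 3 were called higher in humdG/humdG: Stmn3 (10.1 and 32.1 CPM), Stmn2 (25.7 and 74.7 CPM) and Stmn1 (243 and 427 CPM). Red blood cell-like cells held them at 10.2 and 30.2, 45.0 and 78.7, and 239.97 and 391.6 CPM. Of 21 microtubule-associated proteins 3 were called higher and none lower. In red blood cell-like cells 3 of 4 stathmins and 3 of 18 measured microtubule-associated proteins were called higher and none lower. There 6.40% of all genes were called higher and 13.1% lower. Of 8 subunits of the gamma-tubulin ring complex, which nucleates microtubules, none was called in RPE-like cells. Of 19 measured tubulin modifying enzymes none was called higher and 4 lower, among them Ttll5, a polyglutamylase, at 78.3 and 40.2 CPM (log2 ratio -0.96, -1.30 to -0.64) against 8.90 and 8.23 CPM in red blood cell-like cells, and Hdac6, the tubulin deacetylase, at 17.9 and 11.0 CPM (-0.71, -1.39 to -0.06), where red blood cell-like cells were at 4.90 and 10.1 CPM. Of 14 folding cofactors and chaperonin subunits 1 was called lower, Tbce, at 22.4 and 13.0 CPM, a share no larger than that of all genes. Among 6 severing enzymes 1 was called higher and none lower, and of 10 G2/M genes none was called. Outside the 10 members, 4 other tubulins were measured. The 1 called higher was Tubb4b, at 123 and 204 CPM, where red blood cell-like cells were at 58.8 and 115 CPM.

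Outside the tubulin family, the genes whose levels over the 34 class and library combinations most resembled each member were found among 8114 genes, by Pearson's r of log2(CPM + 10). The points share libraries, and r is a description. Tubb3 was most like Tagln3 (0.97), Cabp1 (0.95) and Brsk2 (0.95), Tubb2b like Nnat (0.92), Nsg1 and Pdxp, and Tuba1a like Zfp428 (0.88), Ctxn1 and Atp6v0e2. Tubb4a was most like Gria3 (0.81), Ptprt and Apc2, and Tubb2a like Nav1 (0.74), Nbdy and Zyx. Tubb5 was most like Srsf3 (0.93), Set and Snrpe, Tuba1b like Cnbp (0.89), Hat1 and Cmc2, and Tuba1c like Sdf2l1 (0.82), Ciao2a and Hnrnpf. Tubb6 was most like Crip1 (0.87), Tnfsf12 and Slc29a1, and Tuba4a like Stxbp2 (0.88), Slc48a1 and Rbm47. Among the members the closest pair was Tubb2b and Tuba1a (0.83), followed by Tuba1b and Tuba1c (0.74).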

How the data were processed

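The deposited matrices hold UMI counts of 10x 3′ libraries as the authors' pipeline gave them, not normalized. The submitters' processing notes name Cell Ranger 7.1.0, Seurat 4.1.1 and mm10. Whether reads in introns were counted is not given in the sources used here. Cells needed over 500 detected genes and a mitochondrial share below 15%. Scrublet (scanpy 1.11.5) marked 1 and 0 cells, so a fixed 5% of each library, its top-scoring cells, was dropped, which does not measure doublets. Cells were clustered with Seurat 5.3.0 (2000 variable genes, 20 dimensions, resolution 0.5) without tubulin genes. A cluster took a class name when at least 3 markers and 50% of the class list were raised at least 2 times over other cells (10 CPM added) in at least 10% of its cells, with 1 among the 20 leading genes or over 80% of the list raised. It stayed unnamed when another class had more raised markers, unless every marker of its own list was raised. The myogenic precursor-like cluster was named by this exception, with 6 raised markers beside 7 of 9 muscle fibre markers. The tendon-like cluster raised all 5 markers of its list and at least as many mesenchyme markers. This naming rule was set after the clusters were seen. UMIs were summed per class and library (CPM), with exact Poisson intervals for levels, Clopper-Pearson for shares and conditional binomial for ratios (scipy 1.17.1). No test was made, since each genotype has 1 library. A ratio was called at 1.5-fold with an interval that left out 1. On simulated counts for RPE-like cells with 100 genes doubled and 100 halved, 98% and 94% were called, and 1.81% of unchanged genes. Both simulated libraries were drawn from the humWT/humWT profile with counting error alone. These shares therefore leave out every other difference between libraries and are not error rates for the real ratios. The text names the 10 members, listed pathway genes, and for each member the 3 genes of most similar pattern with at least 50 CPM in a class. Members, lists and rules were chosen with earlier results of these data known. Of the gene identifiers, 32158 of 32285 were found in GENCODE M21.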

Additional observations from a re-analysis of the deposited data

Results flagged for a closer look

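For 3 genes the ratio of humdG/humdG to humWT/humWT was called in opposite directions in different classes. With 1 library per genotype the difference between classes was not tested. Tubb4a had log2 ratios of 0.93 in muscle fibre-like, 0.92 in photoreceptor precursor-like and 0.60 in retinal progenitor-like cells, but -0.91 in RPE-like cells. In the first 3 classes its highest level was 22.8 CPM, and 27 and 49 UMIs stood behind the humdG/humdG values of the first 2. Red blood cell-like cells held Tubb4a at 6.68 and 8.23 CPM. Photoreceptor precursor-like cells, at 4.46 and 8.46 CPM, and retinal progenitor-like cells, at 6.30 and 9.56 CPM, were close to that level. In muscle fibre-like cells the median log2 ratio of all genes was 0.30, in the same direction. In RPE-like cells the lower humdG/humdG share of cells with a Tubb4a UMI was not seen after thinning. Tuba1c had log2 ratios of 0.80 in amacrine and horizontal-like and 1.16 in tendon-like cells, and -0.78 in photoreceptor precursor-like cells. The 10 G2/M genes had median log2 ratios of 0.42, 0.60 and -0.59 in these 3 classes. None was called in the first, 5 were called higher in the second and 5 lower in the third. Of all genes, 4.07%, 2.48% and 3.95% were called higher in these classes and 11.5%, 8.03% and 7.74% lower. The part of the G2/M genes in the Tuba1c ratios was not tested. Tuba4a had log2 ratios of 0.87 in macrophage-like cells, from 43 and 49 UMIs, and -1.21 in retinal progenitor-like cells, from 38 and 28 UMIs. Its levels in retinal progenitor-like cells, 2.44 and 1.06 CPM, did not stand above the 3.12 and 7.32 CPM of red blood cell-like cells.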

How the results depend on the processing

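No paired analysis was possible because each genotype has 1 library, and for the same reason no replicate could be left out. The 14 alternatives include 2 added after seeing the data, the larger RPE-like cluster alone and cells with at least 10000 UMIs. The log2 ratio of the 10 genes together in RPE-like cells stayed above 0 in all 14 but left its counting interval in 9: 0.72 at resolution 1.0, 0.57 with libraries merged without integration, 0.59 with at least 2000 UMIs, 0.92 as a mean of per-cell CPM, 0.73 without the 1% of cells with the most UMIs, 0.71 with median-of-ratios scaling, 0.33 with the red blood cell-like level subtracted, 0.57 in the larger cluster alone and 0.40 in cells with at least 10000 UMIs. The number of members called higher there was 2 after subtraction and 2 in cells with at least 10000 UMIs. Over the 16 classes, the 41 ratios called higher became 64 as a mean of per-cell CPM, 23 after subtraction and 17 in cells with at least 10000 UMIs, and the 8 called lower became 13 after subtraction. Intervals were rescaled for subtraction and the per-cell mean, so they are too narrow there. After subtraction the Tubb2b ratio in retinal progenitor-like cells turned to -0.44, and Tubb3 and Tubb2b gave no value in RPE-like cells because nothing was left in humWT/humWT. Tubb4a in RPE-like cells lay between -1.26 and -0.51, under the 1.5-fold mark as a mean of per-cell CPM. The highest class was the same for 7 to 10 of the members (Tubb5, Tubb2a, Tubb4a and Tubb6 changed theirs in at least 1 alternative), and the most abundant isotype for 52 to 68 of 68 combinations. The causes were not tested. Depth limits the rare genes most: 3 UMIs were worth 0.69 CPM in RPE-like cells of humWT/humWT and 1.22 CPM in those of humdG/humdG.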

Other observations

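The 4 unnamed clusters held 34.3% of the kept humWT/humWT cells and 51.3% of the humdG/humdG cells and entered no comparison. In the largest, led by Sncg, Cdk8 and Gphn, Tubb3 was at 106 CPM in humWT/humWT and 264 CPM in humdG/humdG, Tubb2b at 146.5 and 401 CPM, and Tuba1a at 772 and 1753 CPM. In a cluster led by histone genes Tubb5 was at 1710.1 and 2325 CPM and Tuba1b at 933 and 1257 CPM, for both genes above every named class of the same library. In a cluster led by Spp1, Mgp and Rgs5 Tubb5 was at 771 and 766 CPM, Tuba1a at 620.2 and 658 CPM, Tubb3 at 10.3 and 31.8 CPM and Tubb6 at 47.1 and 32.7 CPM.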
